A study of Bos taurus with 14 samples.

Results

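The genes described here encode the proteins of the cytosolic ribosome, followed with 14 Affymetrix bovine arrays in mammary tissue that was biopsied from dry Holstein cows. Members were taken by annotated gene symbol: a probe set counted when its one symbol was RPL or RPS followed by a number, with at most 1 further letter of A, X, Y or L, or was RPLP0, RPLP1, RPLP2 or RPSA. The rule found 87 probe sets of 64 genes among 24016 probe sets that are not array controls. It used no measured value. The 4 groups were short-day (SD) cows at day -9 (n = 4), long-day (LD) cows at day -9 (n = 4), SD cows at day -24 (n = 3) and LD cows at day -24 (n = 3), with days counted from calving. SD means 8 h of light and 16 h of darkness, and LD means 16 h of light and 8 h of darkness. Every cow was a Holstein whose milking had been stopped ahead of calving and who had been allotted at random to 1 of the 2 photoperiods for the whole dry period. No group under the lighting kept before drying off was analysed here, so SD and LD are each set against the other only.

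A cytosolic ribosome joins a small subunit, which reads the messenger RNA, to a large subunit, which forms the peptide bonds. Each subunit is a ribosomal RNA scaffold dressed with proteins that are made in near-equal numbers, and a flexible stalk of P proteins on the large subunit recruits the elongation factors. Messengers of these proteins begin with a terminal oligopyrimidine (TOP) tract through which the growth regulator mTOR controls their translation, so the cell can alter the making of ribosomal proteins without a change in RNA level. The dry period is when the gland replaces epithelial cells and prepares for milk secretion, which makes heavy demands on protein synthesis.

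Values are log2 signals after robust multi-array averaging (RMA), as the authors deposited them. Array medians lay between 6.43 and 6.60 and pairs of arrays correlated at 0.950 to 0.992 over all probe sets. Whether 1 cow gave both biopsies, and whether replicates were separate cows, is not in the labels, so the p-values measure only the spread between these samples. The samples are bulk tissue, in which fewer cells of a type and less RNA per cell cannot be told apart. Group differences were tested with limma over all 14 arrays, with Benjamini-Hochberg adjustment over the 24016 probe sets, in 7 comparisons. None of these comparisons gave an adjusted p under 0.05 for any probe set, members included.

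The large subunit was covered by 49 probe sets of 38 genes, the small subunit by 34 probe sets of 24 genes and the stalk by 4 probe sets of RPLP0 and RPLP2. RPLP1, RPS27A, RPS4X, RPS4Y and the paralogues RPL10L and RPL39L had no probe set under their own symbol and were not analysed here. All 64 genes matched a RefSeq bovine gene by Entrez ID and symbol, among 79 RefSeq genes that the rule would take. A probe set's signal reflects its own probes as well as its transcript, so levels are compared between arrays and not between genes. Related sequences, such as processed pseudogenes, can also bind the probes of these genes, and 2 members carry the suffix _s_at and 1 the suffix _x_at, which the manufacturer gives to probe sets that may match more than one transcript.

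Most ribosomal protein probe sets were bright and steady from array to array. Of the 87, 55 had a mean log2 signal of 12 or more over the arrays, and these cover 52 of the 64 genes. Their standard deviation within groups had a median of 0.058 log2 units. It was 0.103 in the 105 other probe sets of mean 12 or more and 0.244 over all 24016. The 32 dimmer members had a median of 0.207. Mean signal had a median of 12.86 in the 55 bright members and 12.44 in the 105 others, so brightness was not matched. RPL13A, a large-subunit protein whose messenger is a common internal control in PCR assays, had the smallest spread within groups of all 24016 probe sets, 0.024, and its 14 values spanned 0.10 log2 units. RPS15A, a small-subunit protein, had the next smallest at 0.029. Among the 240 probe sets of smallest spread, 1% of all, 39 were of the 87 ribosomal protein probe sets and 29 of the 105 other bright ones. The 16 probe sets of the list of TOP messengers and translation genes had a median spread of 0.076. Spread was also smaller in bright probe sets of other genes than over the array, and the part of signal near the top of the scale in this steadiness was not tested.

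**Figure D1:**
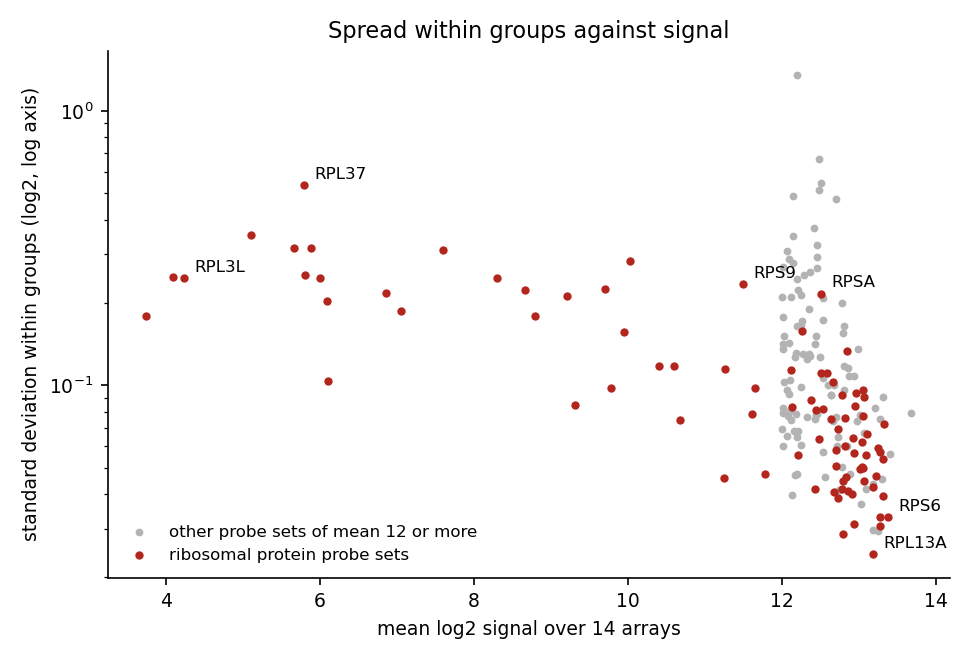
Each red point is 1 of the 87 ribosomal protein probe sets and each grey point 1 of the 105 other probe sets of mean log2 signal 12 or more; the x axis is the mean log2 signal over 14 arrays and the y axis, a log axis, the standard deviation within groups. Bright ribosomal protein probe sets lie mostly low (median 0.058, against 0.103 for the grey points), RPL13A lowest at 0.024 and RPL37 highest at 0.534.

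Some members were far less steady. RPS9, a small-subunit gene that has served as an internal control in bovine mammary PCR work, had a standard deviation within groups of 0.234. RPS9 read 11.02, 11.67, 11.42 and 11.64 in SD cows at day -9, 11.57, 11.74, 11.45 and 11.85 in LD cows at day -9, 11.27, 11.41 and 11.70 in SD cows at day -24 and 11.20, 11.61 and 11.46 in LD cows at day -24. Its 14 values spanned 0.83 log2 units, and the 4 groups overlapped. RPSA, the small-subunit protein also known as the laminin receptor, had a standard deviation of 0.215. The largest belonged to RPL37, a zinc-binding large-subunit protein, at 0.534, where 2 low arrays set the spread.

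One array stood below the rest across the family. For each array, the deviation of every member from that probe set's mean over the 14 arrays was averaged. SD day -9 replicate 1 had a mean deviation of -0.14 log2 units, while the other 13 arrays lay between -0.04 and 0.07. It held the lowest of the 14 values in 54 of the 87 probe sets, and only 12 of its members lay above their own mean. LD day -9 replicate 4 was highest, with the top value in 25 members. The low array also had mean deviations of -0.36 over the ribosome biogenesis list and -0.22 over mitochondrial ribosomal proteins. It had -0.13 over the list of TOP messengers and translation genes. Of the cell type marker lists, T and NK cells (-0.54) and fibroblasts and matrix (-0.49) were low there, and macrophages were at -0.06. The lists for skeletal muscle (0.81), neutrophils (0.70), erythrocytes (0.66), myoepithelium (0.45), adipocytes (0.43), B and plasma cells (0.38), luminal epithelium (0.38) and endothelium (0.32) were high. Other arrays shared some of these values. LD day -24 replicate 1 had -0.24 over mitochondrial ribosomal proteins, and LD day -9 replicate 3 had -0.54 for T and NK cells. Their mean deviations over the ribosomal protein family were -0.01 and -0.03. The part of these lists in the low ribosomal protein signal of SD day -9 replicate 1 was not tested. The splits and medians of gene families and lists below that use this array are given with and without it.

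**Figure D2:**
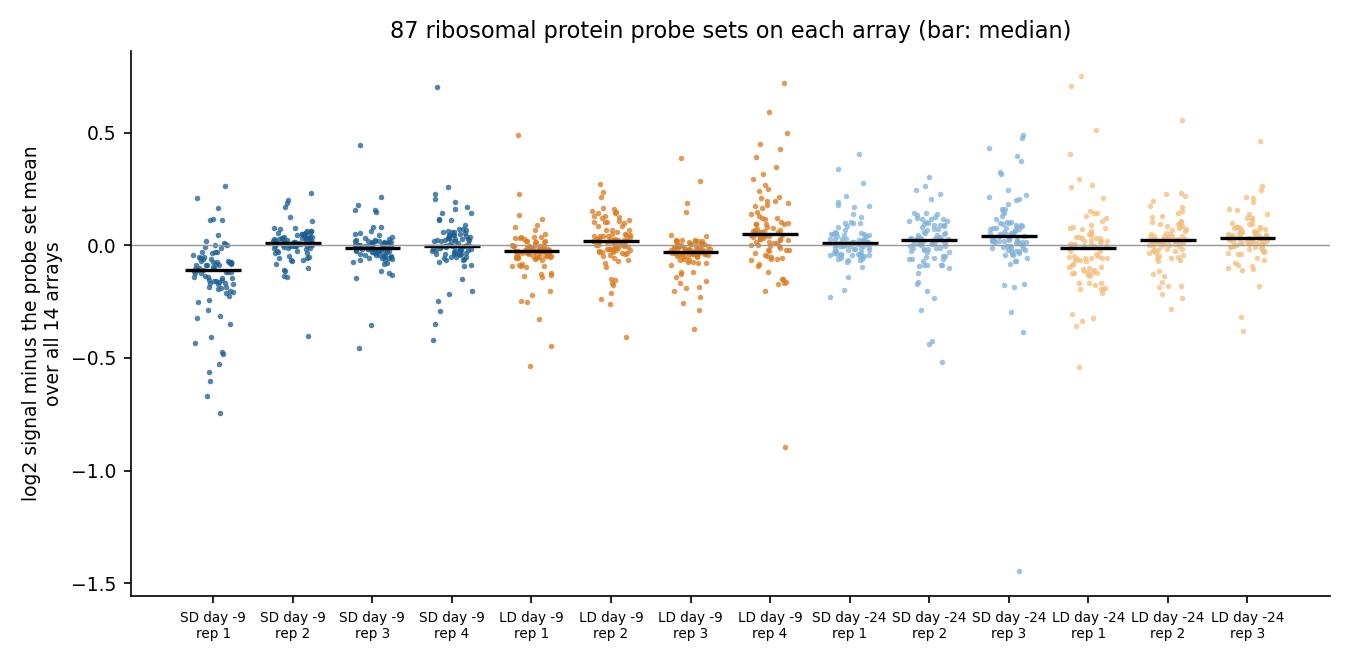
Each point is 1 of the 87 ribosomal protein probe sets on 1 array, as log2 signal minus its mean over all 14 arrays (y axis), with arrays grouped along the x axis as SD day -9, LD day -9, SD day -24 and LD day -24; bars are medians. The cloud of SD day -9 replicate 1 sits low (mean deviation -0.14), and the other arrays centre between -0.04 and 0.07.

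Members varied together from array to array to a modest degree. Over the 14 arrays the median Pearson correlation between pairs of members was 0.284, and 0.444 between pairs of the 55 bright ones. Without SD day -9 replicate 1 these medians were 0.128 and 0.232. The pairs share arrays and normalization, so the correlations describe these 14 arrays.

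The photoperiod comparison asks whether day length alone altered the gland's transcripts during the dry period. For ribosomal protein genes the SD and LD groups lay close together at both days. At day -9, 22 of the 87 probe sets were higher in SD than in LD cows and 65 lower, with a median difference of -0.04 log2 units, against 50.2% higher and a median of 0.00 over all probe sets. Without SD day -9 replicate 1 the split was 33 higher and 54 lower, with a median of -0.01. At day -24, 54 were higher and 33 lower, with a median of 0.01, against 52.7% higher and a median of 0.01 over all probe sets. With arrays centred on a common median the day -24 split was 36 higher and 51 lower. Averaged over days, 25 were higher and 62 lower, with a median of -0.01, against 52.2% higher over all probe sets. Without SD day -9 replicate 1, 46 were higher and 41 lower. Centred arrays gave 18 higher and 69 lower averaged over days, and 24 higher and 63 lower at day -9.

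No member passed the adjusted threshold between photoperiods, where limma called 0% of all probe sets. At an unadjusted p under 0.05 there was 1 member at day -9 (2.77% of all probe sets), 0 at day -24 (2.42%) and 1 averaged over days (1.94%). The 95% interval of the averaged difference lay within 1.25-fold in both directions for 73 of the 87 probe sets, and for all 55 bright ones. The part of signal near the top of the scale in these narrow intervals was not tested. The groups did not overlap for 1 member at day -9 (2.46% of all probe sets) and for 4 at day -24 (5.67%). For 0 members did all SD arrays of both days lie on one side of all LD arrays (0.05%).

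**Figure D3:**
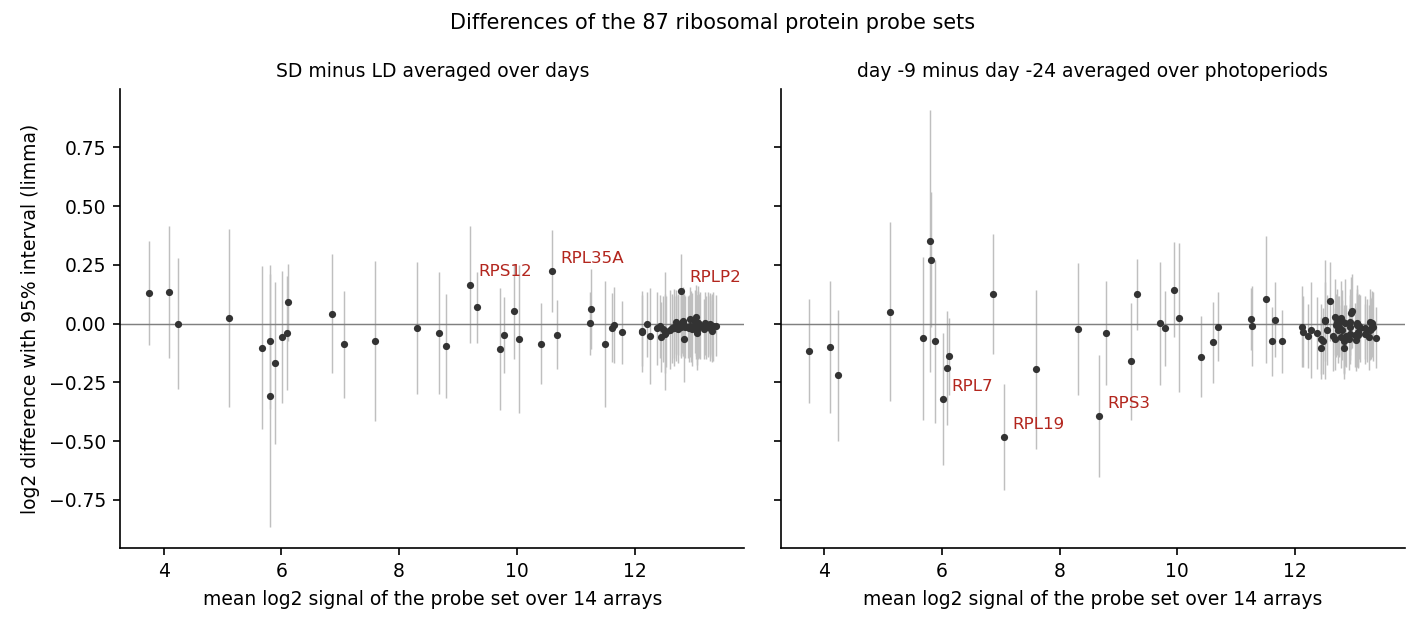
Each point is 1 of the 87 ribosomal protein probe sets, placed by mean log2 signal over 14 arrays (x axis) and by its log2 difference with 95% limma interval (y axis), for SD minus LD averaged over days (left) and day -9 minus day -24 averaged over photoperiods (right); the 3 of smallest p in each panel are named. Points of mean 12 or more hug 0, and the larger differences, such as RPL19 at -0.48 in the right panel, belong to dim probe sets.

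RPL35A, a large-subunit protein whose loss in people causes Diamond-Blackfan anaemia, had the smallest p for photoperiod. It read 10.72, 10.79, 10.76 and 10.39 in SD cows at day -9, against 10.51, 10.45, 10.48 and 10.45 in LD cows at day -9. At day -24 it read 10.70, 10.87 and 10.76 in SD cows, against 10.60, 10.42 and 10.54 in LD cows. SD cows were higher without overlap at day -24, and at day -9 in 3 of 4 SD arrays. The averaged difference was 0.22 log2 units, or 1.17-fold (95% interval 0.05 to 0.40, unadjusted p = 0.0152, adjusted p = 1 in limma).

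RPLP2, one of the stalk's P proteins, followed at 0.14 log2 units averaged over days (95% interval -0.02 to 0.30, limma adjusted p = 1). At day -24 it read 12.84, 12.82 and 12.97 in SD cows, against 12.62, 12.72 and 12.68 in LD cows. These groups did not overlap, but at day -9 SD cows read 12.72 to 12.99 and LD cows 12.62 to 12.83, and they did. RPLP0, the stalk's anchor, had a difference of -0.03 log2 units over the same comparison in its brightest probe set. Its further probe sets had -0.03 and, in the dimmest, 0.09.

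RPL37 showed how far 1 array can move a difference. It read 5.66, 5.60 and 4.36 in SD cows at day -24, against 5.75, 6.36 and 5.89 in LD cows. The groups did not overlap, and the difference was -0.79 log2 units (limma adjusted p = 1). Without SD day -24 replicate 3 it was -0.36. At day -9 the low value was on the other side, with 4.91 in LD replicate 4 beside 6.08 to 6.29 in the other LD arrays. In RPL37 these 2 arrays lay below the other 12 by 0.691 log2 units or more. The same 2 arrays lay below the rest by at least as much in 291 other probe sets, 0 of them members.

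The member of smallest p at day -9 was the dimmer probe set of RPS19, a small-subunit protein needed for maturation of its ribosomal RNA. It read 3.63, 3.76, 4.19 and 3.82 in SD cows, against 3.62, 3.34, 3.55 and 3.68 in LD cows. The groups overlapped. The difference was 0.30 log2 units (95% interval 0.01 to 0.59, unadjusted p = 0.0415, adjusted p = 0.984 in limma), and 0.19 without SD replicate 3. RPS29, a small zinc-binding protein of the small subunit, was the one member whose groups did not overlap at day -9, with a difference of -0.10 log2 units, and -0.05 without SD replicate 1. Its groups were almost touching, with a highest SD value of 10.6975 and a lowest LD value of 10.6979.

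**Figure D4:**
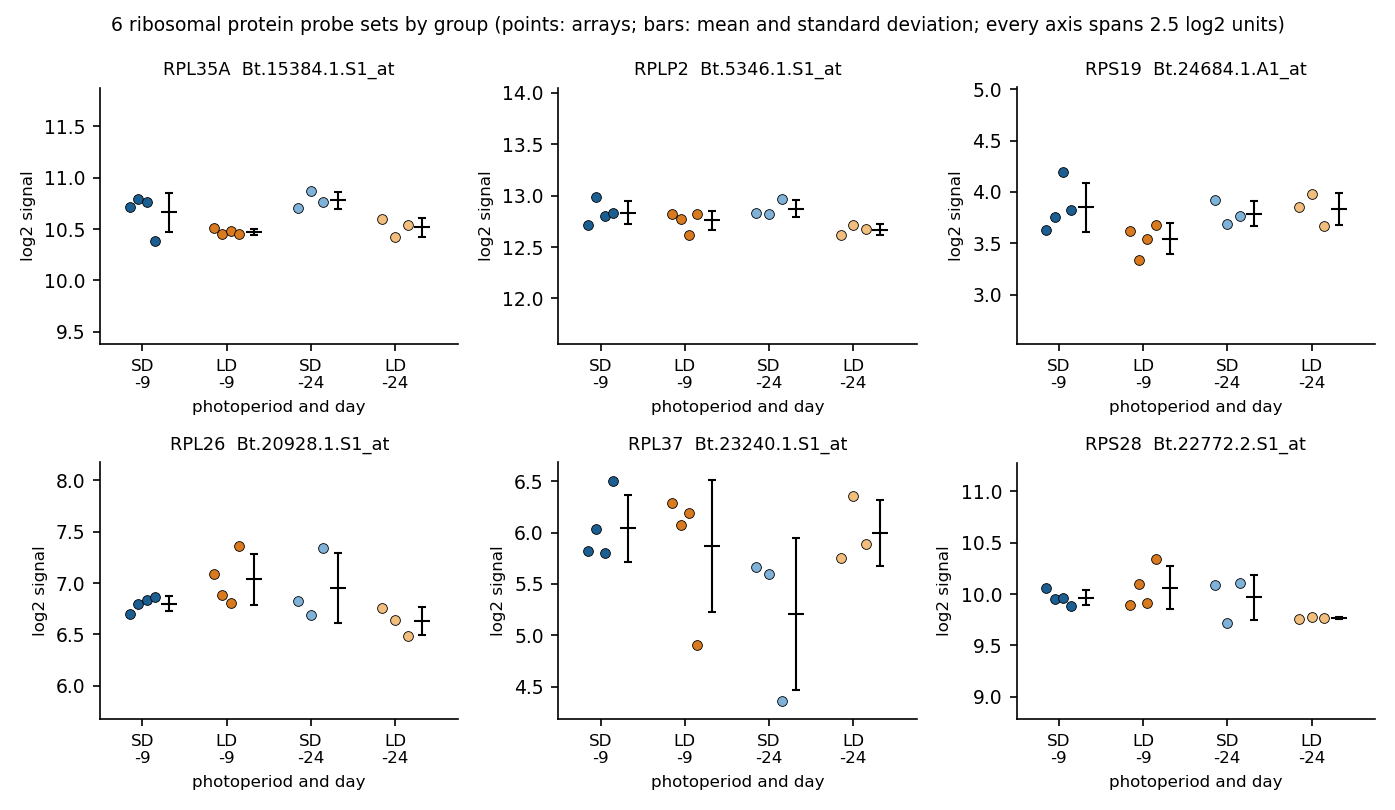
Log2 signal (y axis) of 6 ribosomal protein probe sets on every array, grouped along the x axis as SD day -9, LD day -9, SD day -24 and LD day -24; points are arrays and bars mean and standard deviation. For RPL35A all but 1 SD array lie above every LD array, and the RPL37 spread comes from 2 low arrays at 4.36 and 4.91.

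The comparison of days asks what differed as calving came closer. In SD cows, 77 of the 87 probe sets were lower at day -9 than at day -24 and 10 higher, with a median of -0.05 log2 units, against 46.7% higher and a median of -0.01 over all probe sets. Without SD day -9 replicate 1 the split was 54 lower and 33 higher, with a median of -0.01. With arrays centred on a common median it was 82 lower and 5 higher, with a median of -0.08. In LD cows 49 were lower and 38 higher, with a median of -0.01, against 50.5% higher over all probe sets. With arrays centred on a common median the LD split was 69 lower and 18 higher, with a median of -0.06. Averaged over photoperiods, 62 were lower and 25 higher, with a median of -0.03, against 50.2% higher over all probe sets. Without the low array 49 were lower and 38 higher, and with centred arrays 77 were lower and 10 higher.

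Again limma called no member, and 0% of all probe sets, between days. At an unadjusted p under 0.05 there were 3 members in SD cows (4.56% of all probe sets), 4 in LD cows (7.47%) and 3 averaged over photoperiods, all of them lower at day -9 (7.72% in either direction and 4.08% lower). These counts are 3.45%, 4.6% and 3.45% of the 87 members, and their difference from the array as a whole was not tested. The day difference averaged over photoperiods had a 95% interval within 1.25-fold for 69 of the 87 probe sets, and for all 55 bright ones. The groups did not overlap for 9 members in SD cows, 8 of them lower at day -9 (5.9% of all probe sets did not overlap there, 2.94% being lower), and for 6 in LD cows (8.98%). For 0 members did all arrays of day -9 lie on one side of all arrays of day -24 (0.287%). Among the 9 in SD cows was the bright probe set of RPS13, a small-subunit protein, at 12.32 to 12.41 in SD cows at day -9 and 12.46 to 12.55 at day -24, a difference of -0.13 log2 units (limma adjusted p = 0.97).

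RPL19, a large-subunit protein that reaches across to the small subunit, gave the smallest p of the family. Its dim probe set, of mean log2 signal 7.06, read 7.02, 6.66, 6.61 and 6.81 in SD cows at day -9, against 7.40, 7.14 and 7.46 in SD cows at day -24. In LD cows it read 6.82, 6.80, 6.95 and 7.19 at day -9, against 7.58, 7.15 and 7.31 at day -24. The days did not overlap in SD cows, and in LD cows the highest value of day -9 lay just above the lowest of day -24. Averaged over photoperiods the difference was -0.48 log2 units, 1.40-fold lower at day -9 (95% interval -0.71 to -0.25, unadjusted p = 0.00051, adjusted p = 0.636 in limma).

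The bright RPL19 probe set lay flat between days. It averaged 13.29 ± 0.069 in SD and 13.34 ± 0.042 in LD cows at day -9 (standard deviation, n = 4 each), against 13.33 ± 0.008 in SD and 13.30 ± 0.069 in LD cows at day -24 (n = 3 each). Its averaged day difference was 0.00 log2 units, with a 95% interval of -0.14 to 0.14. The intervals of the 2 probe sets did not overlap, and their values correlated at -0.119 over 14 arrays.

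RPS3, which lines the entry of the messenger channel on the small subunit, repeated the split between probe sets. The dim probe set that gave the smallest p read 8.64, 8.56, 8.62 and 8.25 in SD cows and 8.53, 8.44, 8.49 and 8.51 in LD cows at day -9. At day -24 it read 8.85, 8.98 and 8.70 in SD cows and 9.43, 8.62 and 8.81 in LD cows. The days did not overlap within SD cows or within LD cows. The averaged difference was -0.39 log2 units (unadjusted p = 0.00599, adjusted p = 0.636 in limma). In LD cows alone it was -0.46, and -0.22 without LD day -24 replicate 1. The brightest RPS3 probe set had a day difference of -0.01 and a further one of -0.14.

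The dim RPL7 probe set, for another large-subunit protein, had a day difference of -0.32 log2 units (unadjusted p = 0.0277, adjusted p = 0.636 in limma), while the bright one had -0.03. The dim set read 5.34, 6.01, 5.66 and 6.20 in SD cows at day -9, against 6.14, 6.16 and 6.33 at day -24, and its difference in SD cows of -0.40 was -0.25 without SD day -9 replicate 1. With the adipocyte marker level as a covariate the averaged RPL7 difference was -0.11. Over the alternatives other than leaving out 1 array, this covariate among them, the averaged RPL19 difference ran from -0.53 to -0.41. That of the dim RPS3 probe set ran from -0.49 to -0.29. The part of fat tissue in these differences was not tested. All 7 adipocyte markers were higher at day -9, with a median of 0.35 log2 units averaged over photoperiods. The gap between the 3′ and 5′ ends of 5 control transcripts is a guide to RNA integrity. It ranged from 0.80 to 1.21 log2 units over the arrays of day -9 and from 0.90 to 1.33 over those of day -24. In SD cows it averaged 0.93 at day -9 and 1.19 at day -24, and in LD cows 0.97 and 1.04. With that gap as a covariate the averaged RPL19 difference was -0.41, that of RPS3 -0.32 and that of RPL7 -0.33.

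**Figure D5:**
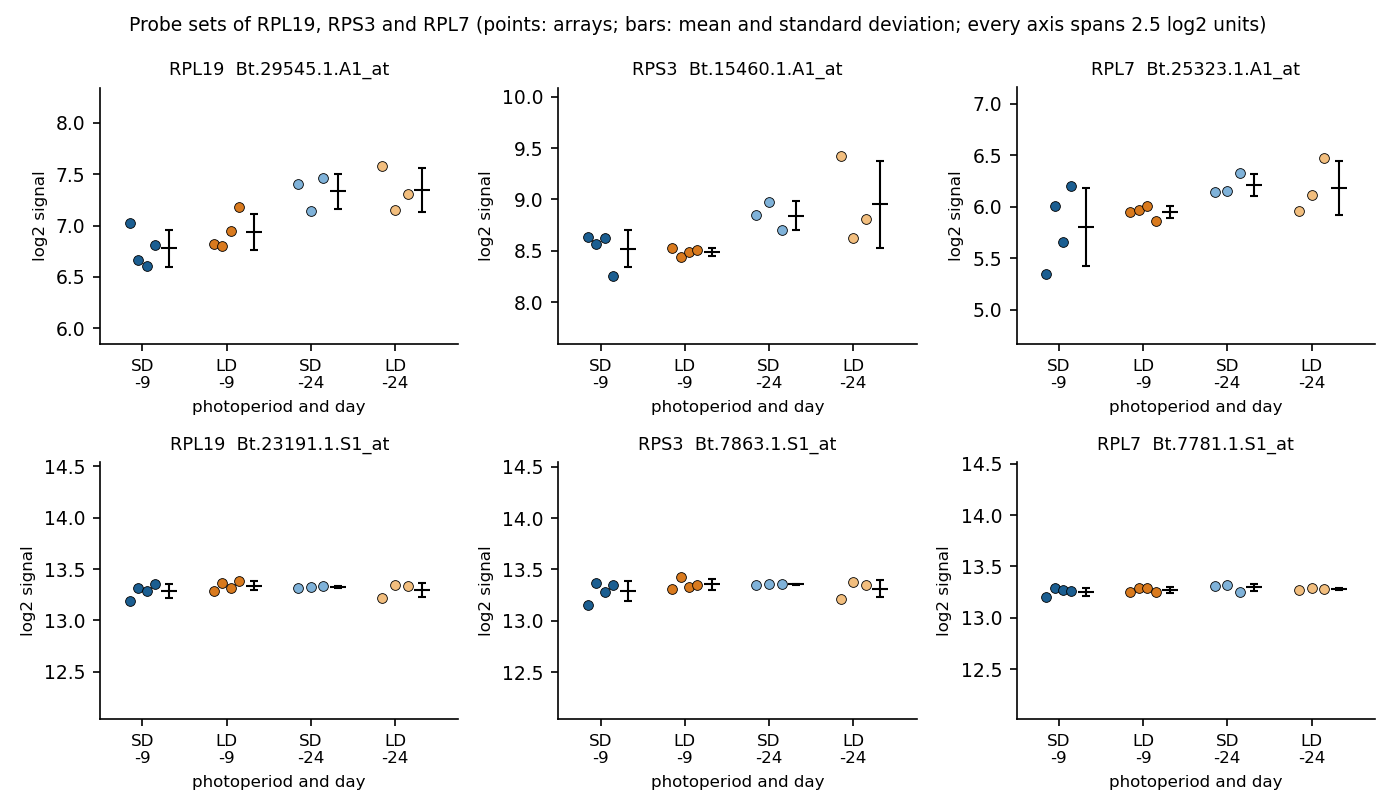
Log2 signal (y axis) of the dim probe set (top row) and the brightest probe set (bottom row) of RPL19, RPS3 and RPL7 on every array, grouped along the x axis as SD day -9, LD day -9, SD day -24 and LD day -24; points are arrays and bars mean and standard deviation, and each axis spans 2.5 log2 units. The dim sets average lower at day -9 (-0.48, -0.39 and -0.32 log2 units), and the bright sets lie flat.

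The other genes with an unadjusted p under 0.05 between days had higher values at day -9. In LD cows RPS28, a small-subunit protein near the exit of the messenger, read 9.90, 10.09, 9.92 and 10.34 at day -9, against 9.76, 9.77 and 9.77 at day -24. The days did not overlap, and the difference was 0.30 log2 units (limma adjusted p = 0.651), and 0.20 without LD day -9 replicate 4. RPL26, which sits beside the tunnel through which the new peptide leaves, read 7.09, 6.88, 6.81 and 7.36 at day -9, against 6.75, 6.64 and 6.48 at day -24 in LD cows in its dimmer probe set, also without overlap. That difference was 0.41 log2 units (limma adjusted p = 0.651), and 0.30 without LD day -9 replicate 4. In SD cows RPL37 differed by 0.83 log2 units between days (limma adjusted p = 0.97), and by 0.41 without SD day -24 replicate 3. Over the alternatives other than leaving out 1 array it ran from 0.04 to 0.95. The value of 0.04 came with the gap between the 3′ and 5′ ends as a covariate. The gap between the 3′ and 5′ ends was 1.33 in SD day -24 replicate 3 and 1.21 in LD day -9 replicate 4, the arrays low in RPL37. It was 1.26 in SD day -24 replicate 2, which was not low. The part of RNA integrity in RPL37 was not tested.

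The photoperiod by day interaction asks whether the day difference in SD cows departs from that in LD cows. In limma 0 members passed the adjusted threshold, and 1 had an unadjusted p under 0.05 (4.15% of all probe sets). It was the dimmer RPL26 probe set, at -0.56 log2 units (95% interval -1.07 to -0.05, limma adjusted p = 0.9), and -0.37 without SD day -24 replicate 3. Its day -24 values in SD cows were 6.82, 6.69 and 7.34, so 1 array lay well above the others. In LD cows at day -9, replicate 4 read 7.36, with the others at 6.81 to 7.09. With both SD day -24 replicate 3 and LD day -9 replicate 4 left out the interaction was -0.26. In the bright RPL26 probe set all 14 values lay within 0.17 log2 units. Over the family 67 interaction values were below 0 and 20 above, with a median of -0.05, against 47.9% above 0 over all probe sets. Without SD day -9 replicate 1 the split was 55 below and 32 above, with a median of -0.01, and with arrays centred on a common median it was also 55 below and 32 above. With array weights it was 44 below and 43 above, with a median near 0.

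Members with known tasks outside the ribosome sat with the rest. RPS6, the small-subunit protein that S6 kinases phosphorylate downstream of mTOR, averaged 13.35 ± 0.046 in SD and 13.36 ± 0.028 in LD cows at day -9 (standard deviation, n = 4 each), against 13.42 ± 0.016 in SD and 13.42 ± 0.029 in LD cows at day -24 (n = 3 each). Its averaged difference was -0.01 log2 units between photoperiods and -0.06 between days, with 95% intervals of -0.14 to 0.12 and -0.19 to 0.07. RPL5 and RPL11, which bind 5S ribosomal RNA and in human cells restrain the p53 inhibitor MDM2 when ribosome assembly fails, had averaged photoperiod differences of 0.02 and -0.01 and day differences of -0.02 and -0.02. RPL22, a large-subunit protein with roles in lymphocyte development in mice, had 0.01 between photoperiods and -0.07 between days. RPL3, which reaches into the peptide-forming centre, had -0.02 between photoperiods and -0.07 between days in its bright probe set. RPSA had -0.03 and 0.02.

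The 2 paralogues with a probe set were RPL3L and RPS27L. RPL3L, which replaces RPL3 in skeletal and heart muscle, had a mean log2 signal of 4.24, below the lower quartile of all probe set means at 4.55. Its 14 values spanned 0.86 log2 units, and its averaged day difference was -0.22 log2 units (limma adjusted p = 0.694). RPS27L, which p53 induces in human cells, averaged 9.71 ± 0.052 in SD and 9.85 ± 0.103 in LD cows at day -9 (standard deviation, n = 4 each), a difference of -0.14 log2 units (limma adjusted p = 0.984). At day -24 its difference was 0.05 log2 units.

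Probe sets of the same gene were only weakly alike across arrays. For 16 genes there were 39 probe sets, so that 23 could be set beside the brightest of their gene. Of the 23, 14 shared the sign of the brightest in the averaged day difference and 10 in the averaged photoperiod difference. Their correlations with it over 14 arrays ran from -0.538, for RPL9, to 0.671, for RPS7, with a median of 0.02. RPL9 illustrates this with 3 probe sets, of day differences -0.10, 0.12 and 0.00 log2 units. Members whose probe set name carries the letter A, 16 in all, had a median standard deviation within groups of 0.224 and supplied all 3 with an unadjusted p under 0.05 between averaged days. The 71 with the letter S had a median of 0.069 and supplied 0. What the letters stand for is not stated in the sources used here.

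Genes that work with the ribosomal proteins were read from lists. Of 21 listed genes whose messengers carry a TOP tract or whose products serve translation, such as the elongation factor EEF1A1, 16 had a probe set. Their median difference was -0.01 log2 units between photoperiods and -0.02 between days, each averaged, with 0 of 16 at an unadjusted p under 0.05 in any of the 7 comparisons. With SD day -9 replicate 1 left out these medians were 0.01 and -0.01, and with arrays centred on a common median -0.01 and -0.06. EEF1A1 itself differed by -0.01 between days. Of 52 listed genes for ribosome biogenesis 40 had a probe set, and 28 of these were lower and 12 higher at day -9 averaged over photoperiods, with a median of -0.08 log2 units, against 50.2% higher over all probe sets. Leaving out SD day -9 replicate 1 gave 21 lower and 19 higher, with a median of -0.01, and centring the arrays gave a median of -0.12. Among the 40, 4 had an unadjusted p under 0.05 (7.72% of all probe sets), all lower (4.08%): WDR43, which acts in early ribosomal RNA processing, at -0.24, RRN3 and TAF1B, which start RNA polymerase I, at -0.19 and -0.49, and LTV1, which matures the small subunit, at -0.32 (each adjusted p = 0.636 in limma). Without SD day -9 replicate 1 these differences were -0.21, -0.19, -0.55 and -0.23.

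Of 27 listed genes that carry growth signals to ribosome synthesis 20 had a probe set, and none passed the adjusted threshold in limma. In LD cows 2 of the 20 had an unadjusted p under 0.05 between days (7.47% of all probe sets). EIF4E, which binds the messenger cap, had a difference of -0.32 log2 units in LD cows (limma adjusted p = 0.651) and 0.02 in SD cows. RPS6KB1, which encodes an S6 kinase, had -0.31 in LD cows (limma adjusted p = 0.651) and 0.06 in SD cows. Their interaction had an adjusted p of 0.9 each in limma. EIF4EBP1, the inhibitor of EIF4E, had 0.37 averaged over photoperiods (limma adjusted p = 0.639), and 0.38 without SD day -9 replicate 1.

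The proteins of the mitochondrial ribosome are encoded by a separate gene family, measured by 84 probe sets of 67 genes. In LD cows 67 of the 84 were higher at day -9 and 17 lower, with a median of 0.15 log2 units, beside 38 and 49 of the 87 cytosolic probe sets and 50.5% higher over all probe sets. With arrays centred on a common median these splits were 60 and 24 for the mitochondrial family, with a median of 0.10, and 18 and 69 for the cytosolic one. The mean deviation of the mitochondrial family in LD cows at day -24 was -0.24 in replicate 1, 0.08 in replicate 2 and 0.00 in replicate 3. In LD cows at day -9 it ran from -0.04 to 0.21. Low values of 1 array thus weigh on this split, and a fit without LD day -24 replicate 1 was not run for this family. In SD cows 25 mitochondrial probe sets were higher and 59 lower, with a median of -0.04, and without SD day -9 replicate 1 the split was 49 and 35, with a median of 0.01. Between photoperiods at day -9, 19 were higher in SD cows and 65 lower, with a median of -0.11, against 50.2% higher over all probe sets. Without that array 29 were higher and 55 lower, with a median of -0.03. At day -24, 67 were higher in SD cows and 17 lower, with a median of 0.08, against 52.7% higher over all probe sets. This split also uses LD day -24 replicate 1 and was not refitted without it. The family's mean deviation in SD cows at day -24 was 0.07, -0.20 and 0.15, which overlaps that in LD cows. None of the 84 probe sets passed the adjusted threshold in limma, and the difference between the families was not tested.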

How the data were processed

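RNA of 14 mammary biopsies was hybridised to Affymetrix bovine arrays. The deposited table holds log2 values made by the authors with RMA, per the submitters' processing notes; the software, its version and the RMA settings are not given in the sources used here. The table lists 24128 probe sets, of which 112 Affymetrix controls were left out. RMA quantile-normalizes arrays, so a change shared by most transcripts would not show. Symbols came from the platform annotation: 13292 probe sets had 1 symbol and 86 had several, which were not used.

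Groups were taken from the labels. limma 3.58.1 in R 4.3.3 fitted 4 group means over all 14 arrays (lmFit, eBayes, two-sided), and p-values were adjusted over 24016 probe sets at a threshold of 0.05. Spread within groups is the residual standard deviation of that fit. The steps were tested on simulated data. The members and lists were chosen with earlier results of these data known, so they lend no independent support. Named members are those of the 8 smallest p per comparison, genes with roles outside the ribosome, the stalk, paralogues and the 5 of largest spread; RPL13A, RPS15A and EEF1A1 lie outside that rule and were chosen after their values were seen. Alternatives changed the filter, prior, centring, normalization, weights, covariates, block and samples; for the companion lists, leaving out SD day -9 replicate 1 and centring the arrays were chosen after seeing the data. The number of arrays limits the precision. No sequences were used here.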

Additional observations from a re-analysis of the deposited data

Results flagged for a closer look

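In groups of 4 arrays, 6 of 68 sets of values of the named probe sets and of the family mean had 1 array far from the other 3 (8.82%). Many of these probe sets were named for a small p or a large spread in these data, and the sets share arrays. This share therefore cannot be set against a chance rate. SD day -9 replicate 1 accounts for 3 of them. The mean deviation of the family there was -0.1412 log2 units, with the other 3 SD arrays of day -9 between -0.01 and 0.01. RPL39, a protein of the peptide exit tunnel, read 12.38 there, with the others between 12.44 and 12.46, and the brighter RPS19 probe set read 5.142, with the others at 5.895 or above. Among LD cows at day -9, replicate 4 read 4.91 for RPL37 and 8.023 for the dimmest RPL32 probe set, with the others at 6.08 to 6.29 and 7.34 to 7.44. Replicate 1 read 5.866 for the dimmest RPLP0 probe set, with the others at 6.09 to 6.10.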

How the results depend on the processing

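Over 28 alternative settings limma called 0 members in each of the 7 comparisons, and none of the 1482 refitted values of named members gained a call. The lowest adjusted p of a named member was 0.255, for RPL19 between days averaged over photoperiods with array weights. Family medians moved by more than 0.039 log2 units, the spread between arrays, in 4 refits. Centring the arrays on a common median gave -0.06443 between days in LD cows (18 higher, 69 lower) and -0.07022 averaged over photoperiods (10 higher, 77 lower). It also gave 36 higher and 51 lower between photoperiods at day -24. The interaction median was -2.152e-05 with array weights (44 below 0, 43 above) and -0.001834 without both LD day -24 replicate 1 and SD day -9 replicate 1. The cause was not tested. Leaving out 1 array at a time gave medians of -0.05 to -0.01 between photoperiods at day -9, -0.07 to -0.01 between days in SD cows and -0.06 to -0.01 in the interaction. With the replicate number as a block the medians were -0.06658 between days in SD cows, -0.02348 in LD cows and -0.04447 averaged, and no call changed. The labels do not say whether same-numbered samples belong together: over 13 such pairs their deviations correlated at -0.313 to 0.331, 7 of them above 0.1, and in 8 the sample correlated best with its own number, a hint from the data and not the design. Fits of only the groups compared could not be given for averaged comparisons or the interaction. Dim members limit what can be seen: in 14 of 32 the interval of the averaged day difference lay within 1.25-fold.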
